A study of Mus musculus with 34 samples.

Results

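The cytochrome P450 genes were taken as all genes whose 1 annotated symbol begins with Cyp, a family number and a subfamily letter. That rule found 62 genes, read by 75 probe sets, among 12393 genes with 1 symbol and 22690 probe sets on the array, and the brightest probe set over all 34 arrays stood for each gene. The subfamilies of Cyp2 gave 31 of the 62 genes, Cyp4 gave 10 and Cyp3 gave 5. Another 4 probe sets that name a P450 beside a second gene were left out.

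The labels of the tibialis arrays give a mixed C57BL6/129SV strain, and each array of this mouse Affymetrix design measured total RNA of 1 tissue. At 3 months, wild-type (WT) mice and mice without muscle glycogen synthase (MGSKO) gave anterior tibialis (4 and 4 arrays), liver (4 and 4) and medial gastrocnemius (5 and 3). At 8 months, WT mice and mice of the GSL30 line, which overexpress muscle glycogen synthase, gave medial gastrocnemius (5 and 5). The labels do not name the promoter that drives the transgene, how the knockout was made, the sex of the mice, or whether arrays came from separate animals, so the p-values measure the spread between these samples, which may be technical. Targets were made from about 5 µg of RNA for muscle and about 10 µg for liver, so a difference between liver and muscle cannot be told apart from a difference in starting amount.

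P450 enzymes are haem-containing monooxygenases that use electrons from a reductase partner to insert oxygen into sterols, fatty acids, steroid hormones, vitamins and foreign compounds. Liver is their main organ: several families there clear drugs, and others turn cholesterol into bile acids. Skeletal muscle is not known as a site of high P450 content, so liver RNA in a muscle sample would be seen easily through these genes.

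Promoters are shown for 5 genes on which the results below turn, Cyp8b1, Cyp2c70 and Cyp3a11 as genes far brighter in liver than in tibialis, and Cyp2e1 and Cyp27a1 as genes detected in both tissues. Each is the 250 bases before the gene's start, 5′ to 3′ on the gene's strand, from RefSeq on GRCm38.p6. Capitals mark TGNACTTTG, a core recognised by the liver factor HNF4, or TATAAA, each searched on both strands, with N any base.
Cyp8b1, chr9:121916306-121916555, minus strand: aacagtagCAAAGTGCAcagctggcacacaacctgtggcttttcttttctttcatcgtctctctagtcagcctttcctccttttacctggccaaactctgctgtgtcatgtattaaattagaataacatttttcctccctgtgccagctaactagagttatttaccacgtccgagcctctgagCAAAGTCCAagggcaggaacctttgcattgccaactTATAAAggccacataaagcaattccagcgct
Cyp2c70, chr19:40187287-40187536, minus strand: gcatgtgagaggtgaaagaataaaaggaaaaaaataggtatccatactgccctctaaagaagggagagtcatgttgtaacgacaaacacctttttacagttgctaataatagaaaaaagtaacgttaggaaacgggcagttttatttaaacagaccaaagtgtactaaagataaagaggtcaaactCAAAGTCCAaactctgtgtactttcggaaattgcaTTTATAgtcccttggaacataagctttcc
Cyp3a11, chr5:145879855-145880104, minus strand: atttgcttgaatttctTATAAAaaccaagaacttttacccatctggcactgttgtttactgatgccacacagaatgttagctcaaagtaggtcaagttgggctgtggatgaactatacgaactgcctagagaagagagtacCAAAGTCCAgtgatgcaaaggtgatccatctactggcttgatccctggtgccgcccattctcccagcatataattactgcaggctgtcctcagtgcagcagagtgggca
Cyp2e1, chr7:140763569-140763818, plus strand: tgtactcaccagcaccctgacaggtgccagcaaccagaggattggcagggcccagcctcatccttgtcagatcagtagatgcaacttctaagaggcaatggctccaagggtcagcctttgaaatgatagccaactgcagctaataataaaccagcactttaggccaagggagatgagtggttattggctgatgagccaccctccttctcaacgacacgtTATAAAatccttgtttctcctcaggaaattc
Cyp27a1, chr1:74713285-74713534, plus strand: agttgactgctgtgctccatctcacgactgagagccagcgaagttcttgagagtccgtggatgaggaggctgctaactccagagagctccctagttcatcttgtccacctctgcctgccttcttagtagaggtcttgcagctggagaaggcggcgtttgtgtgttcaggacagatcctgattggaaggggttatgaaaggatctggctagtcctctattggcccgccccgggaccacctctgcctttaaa

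The HNF4 core lay 67 bases before the start in Cyp8b1, 64 in Cyp2c70 and 109 in Cyp3a11, and Cyp8b1 held a second match at 242. TATAAA began 31 bases before the start in Cyp8b1 and in Cyp2e1 and, on the opposite strand, 29 before it in Cyp2c70, while Cyp3a11 held it at 234 and Cyp27a1 held neither motif. Of the 45 members with a promoter entry, 11 (24.4%) held TGNACTTTG, against 379 of 27025 genes (1.4%). Among the 21 with an entry that were high in liver by the rule below, 7 held it (33.3%: Cyp2c37, Cyp2c50, Cyp2c68, Cyp2c70, Cyp2d26, Cyp3a11 and Cyp8b1), and among the 24 others 4 held it (16.7%). TATAAA was found in 17 of the 45 (37.8%) and in 3872 of all genes (14.3%). The core of the liver factor HNF1, searched likewise, was in 0 of the 45 and in 0.44% of all genes. Neighbouring members are related in sequence, since 9 of the 10 with an entry on chromosome 19 are Cyp2c genes, so these counts are a description, and a match of letters does not show that a factor binds.

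The arrays matched their labels for muscle glycogen synthase and for tissue. Gys1, which encodes it, read 8184 to 9958 in WT tibialis and 34.2 to 72.5 in MGSKO tibialis by its brighter probe set, and in GSL30 gastrocnemius it read 7896 to 10404 against 5840 to 7185 in WT. All 12 measured hepatocyte markers were above the median of all probe sets in every liver group, and all 8 skeletal muscle markers in every muscle group. The WT gastrocnemius arrays of 3 months stood apart before any P450 was read. Their hepatocyte marker sum ran from 45342 to 749996, the highest above every liver WT array, and replicate 2, which holds that value, also had a muscle marker sum of 1659750 where the other muscle arrays lay between 325917 and 832128. The share of liver signal in an array is given below as a liver index. It is the median, over 359 probe sets of other genes with at least 2000 in WT liver and at least 20 times their tibialis level, of the percent of the WT liver mean. The index was 95.2 to 103% in the liver arrays and 0.724 to 1.27% in the tibialis arrays, a floor set by background. In WT gastrocnemius of 3 months it was 17.2, 24.6, 5.6, 26.1 and 2.85% in replicates 1 to 5, in MGSKO 8.09, 3.75 and 2.70%, and at 8 months 1.17 to 2.48% in WT and 0.974 to 1.55% in GSL30.

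In liver many P450 genes were bright, and none passed the threshold between MGSKO and WT. Levels are deposited intensities, comparable between arrays for 1 gene but not between genes, and differences are on the log2(intensity + 50) scale with limma's standard error (SE). A gene was called where limma's p, adjusted by Benjamini-Hochberg over 13576 probe sets, was under 0.05. Of 47 members bright enough to be tested, 0 were called, where 0.00737% of all probe sets were called, namely 1 probe set. At an unadjusted p under 0.05 there were 4 members (8.51%), against 1131 of all probe sets (8.33%). The difference was positive in 31 of the 47, with a median of 0.13 beside 0.02 over all probe sets, and ran from -0.49 to 1.62.

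Of the 12 members of highest mean in WT liver, the groups overlapped in all but Cyp8b1, Cyp27a1 and Cyp2c50. The share of all probe sets without overlap was not taken, so whether this is more than usual cannot be said. Cyp2e1, which oxidises ethanol and acetone, read 46216 ± 3367 (SD, n = 4) in WT and 43915 ± 7415 (n = 4) in MGSKO. Cyp3a11, a broad drug-metabolising enzyme, read 33740 ± 2239 and 31164 ± 5257, and Cyp2f2, known for activating naphthalene, read 38541 ± 945 and 39414 ± 1344. Cyp2c50, an arachidonic acid epoxygenase, read 27074, 26828, 25911 and 26241 in WT and 25268, 24196, 23813 and 24263 in MGSKO, without overlap, but the difference of -0.12 (SE 0.09) had an adjusted p of 0.766 by limma. The members Cyp2d26, Cyp2d9, Cyp2a12, Cyp3a25 and Cyp2d10 had WT means from 17486 to 28046 and MGSKO means from 17603 to 25412. Cyp4a14, a fatty acid hydroxylase induced through the receptor PPARα, read 42439, 39286, 33830 and 44212 in WT and 10928, 35656, 40590 and 40297 in MGSKO. A single MGSKO array lay low there and the other MGSKO arrays were within the WT range.

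The members of smallest p in liver were Cyp2c70, Cyp8b1, Cyp2c29 and Cyp27a1, in that order. Cyp8b1, the sterol hydroxylase needed for cholic acid, read 23780, 25962, 21907 and 21129 in WT and 13049, 20145, 18163 and 15878 in MGSKO. The groups did not overlap, but the difference of -0.48 (SE 0.15) had an adjusted p of 0.430 by limma. Cyp2c70, which makes the muricholic acids of mice, read 7218, 4215, 14694 and 5131 in WT and 37086, 11459, 16546 and 17181 in MGSKO. WT replicate 3 reached into the MGSKO range, and the difference of 1.42 (SE 0.42) had the same adjusted p of 0.430 by limma. Cyp27a1, the mitochondrial enzyme that oxidises the cholesterol side chain, read 16191, 16327, 18069 and 15345 in WT and 19004, 20312, 20971 and 18888 in MGSKO, a difference of 0.26 (SE 0.10, adjusted p = 0.539 by limma) without overlap. Cyp7a1, the rate-limiting enzyme of the classical pathway, read 1802 to 6004 in WT and 1974 to 5683 in MGSKO, a difference of 0.24 within the spread of either group. Of the 6 members listed under bile acid and cholesterol and tested, a list that does not hold Cyp2c70, 0 were called and 5 differences were positive, with a median of 0.25.

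**Figure D1:**
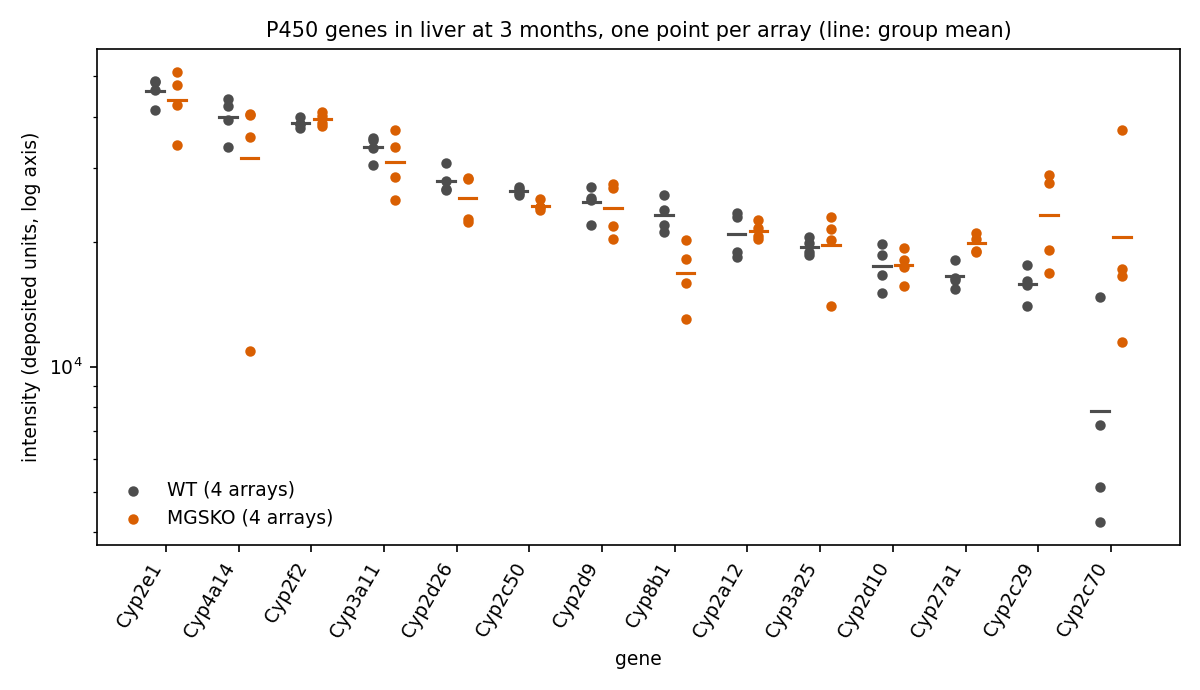
Intensity on a log axis of the 12 P450 genes of highest WT liver mean, with Cyp2c29 and Cyp2c70, in 4 WT and 4 MGSKO liver arrays at 3 months, with 1 point per array and a line at each group mean. The lowest WT Cyp8b1 array lies at 21129 and the highest MGSKO array at 20145, while for Cyp2e1, Cyp3a11 and Cyp2f2 the groups overlap.

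The Cyp2c subfamily held the widest differences between the liver groups, those of Cyp2c39 and Cyp2c70. Of its 10 tested genes 8 differences were positive, from -0.18 to 1.62, and 0 were called. Cyp2c29, a xenobiotic-metabolising enzyme, read 16050 (WT replicate 1), 13966, 15751 and 17602 in WT and 16780, 27718, 28944 and 19110 in MGSKO, a difference of 0.51 (SE 0.18, adjusted p = 0.498 by limma) with overlap. Cyp2c39, a relative of it, gave the widest spread: 181, 681, 544 and 741 in WT and 41.3, 6857, 7276 and 1475 in MGSKO. Its MGSKO arrays lay both below and far above WT, and the difference of 1.62 had an SE of 1.19. The value of 41.3 was that of MGSKO replicate 1. The same array held the lowest liver value of Cyp4a14 (10928) and the highest of Cyp2c70 (37086) and Cyp26a1 (4335). Cyp2c copies are close in sequence, so a probe set of 1 gene may read others, and these genes are not independent of each other.

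Members of the other roles gave no call in liver. Of 10 fatty acid and eicosanoid members tested 5 differences were positive, and Cyp4a12a, a male-biased hydroxylase, gave -0.33. Of 22 xenobiotic members tested 15 were positive, with Cyp2b10, a target of the receptor CAR, at 896 to 2896 in WT and 1962 to 7488 in MGSKO. The 3 tested steroid hormone members gave a median of 0.31, and Cyp26a1, which degrades retinoic acid, read 420 to 1343 in WT and 745 to 4335 in MGSKO, with the highest value in replicate 1 alone. The vitamin D members Cyp24a1 and Cyp27b1 were too dim to be tested. Of 8 measured genes known as sex-biased in mouse liver, the male-biased Cyp2d9, Cyp4a12a and Cyp7b1 were bright in every liver array, while the female-biased Cyp2b9, Cyp2b13, Cyp3a44 and Cyp3a16 had WT means of 236, 78.9, 130 and 5.08. The eighth, Cyp17a1, a steroid hydroxylase and lyase, read 746 to 1679 in WT and 255 to 1999 in MGSKO.

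**Figure D2:**
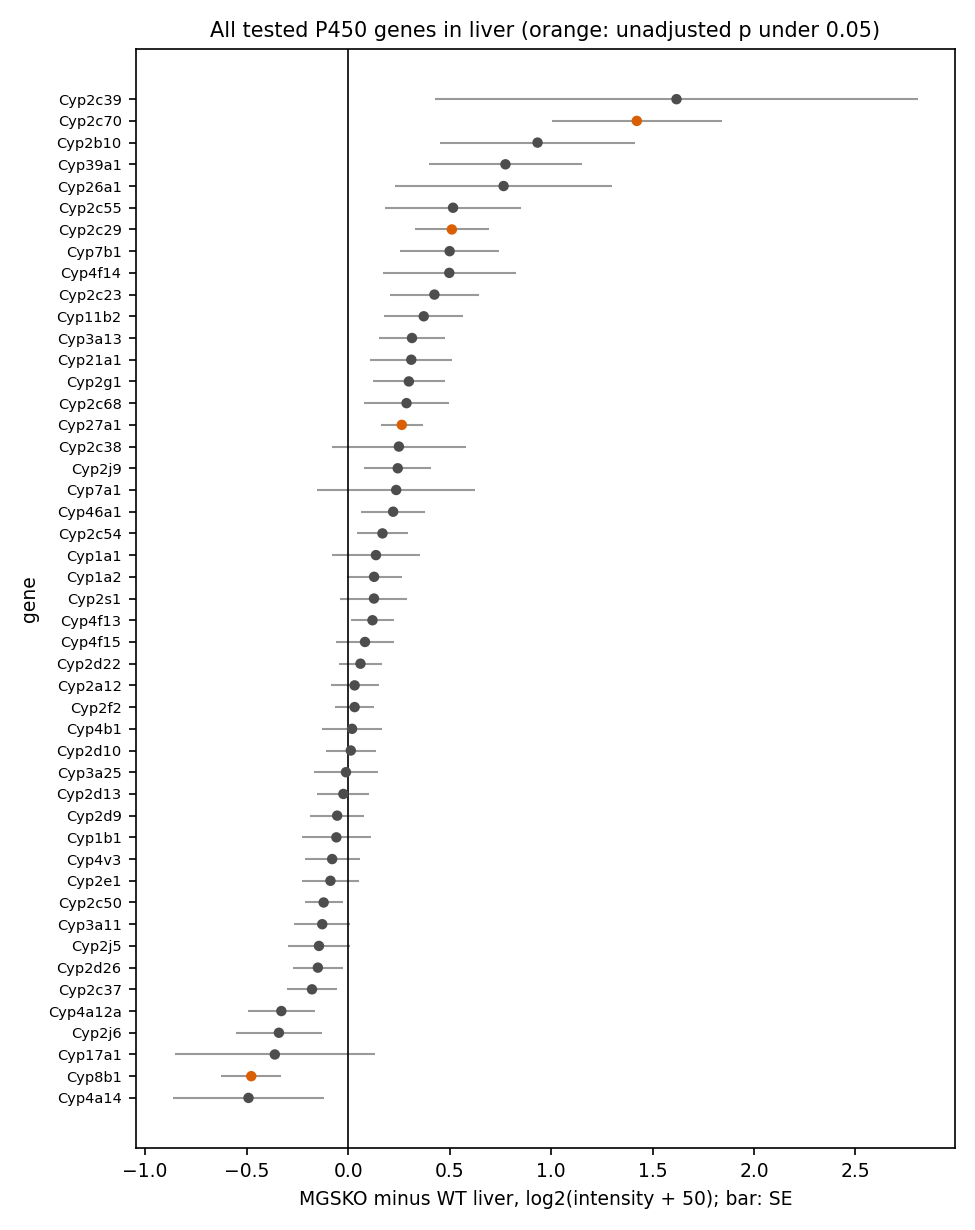
Difference MGSKO minus WT liver on the log2(intensity + 50) scale for the 47 tested P450 genes, with bars of 1 SE from limma and the 4 genes of unadjusted p under 0.05 in orange. Most differences lie between -0.5 and 0.5, and Cyp2c39 at 1.62 has the widest bar.

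The genes that serve the P450s gave no call in liver either. Of 7 electron-transfer partners, 15 nuclear receptors of P450 control, 8 haem synthesis genes and 18 genes of a conjugation list tested, 0 were called by limma. The conjugation list also holds the oxidising enzymes Aox1 and Fmo1. At an unadjusted p under 0.05 there were 2, where 8.33% of all probe sets had such a p. Both were of conjugation: Sult1d1, a sulfotransferase (0.55, adjusted p = 0.440 by limma), and Nat1, an acetyltransferase (-0.48, adjusted p = 0.511 by limma). Nr1i2, the xenobiotic receptor PXR, gave 0.23 (adjusted p = 0.683 by limma) and Fech, the ferrochelatase that completes haem, 0.28 (adjusted p = 0.628 by limma).

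Between WT liver and WT tibialis most members differed. With no filter on dim probe sets 45 of the 62 were higher in liver, where 20.5% of all probe sets were, and 2 were lower, Cyp2j13 and Cyp11a1. With the filter 38 of 41 were higher, where 28.2% of all probe sets were, but many members passed it only through liver, so that count was nearly set by the filter. Cyp4a14 stood at 39942 against 24.8, Cyp3a25 at 19440 against 9.23 and Cyp2j5, an arachidonic acid epoxygenase, at 15117 against 12.7. The 3 members that passed the filter and were not called were Cyp1a1, Cyp1b1 and Cyp21a1, of which Cyp1b1 read 248 in liver and 299 in tibialis. A member was classed as high in liver where it exceeded the median of all probe sets in all 8 liver arrays and its WT liver mean was at least 10 times its tibialis mean. That held for 28 members (45.2%) and for 3.90% of all genes, with Cyp2d22 just inside the limit at 10.4-fold and Cyp2c38 just outside at 8.37-fold.

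In tibialis, 5 members lay above the median of all probe sets in all 8 arrays (8.06% of members, against 48.2% of all genes). They were Cyp27a1, Cyp2e1, Cyp2d22, Cyp4b1 and Cyp2d13. Each also stood above the share of the liver level that hepatocyte markers showed there, which was at most 0.611% (Alb, albumin). That bound removed no gene, since all 5970 genes above the median passed it, so it adds nothing to the median rule. WT tibialis held 24.1% of the WT liver level of Cyp27a1, 3.79% of Cyp2e1, 9.57% of Cyp2d22, 51.9% of Cyp4b1 and 36.2% of Cyp2d13. A second probe set of Cyp2d13 read 29.15 ± 32.5 in WT tibialis, 17.9 ± 5.21 in MGSKO tibialis and 1485 ± 223 in WT liver. The detection of Cyp2d13 therefore rests on the probe set that is brightest over all arrays. With the 60th percentile of each array in place of the median 2 members remained, and with the 40th there were 10. A further 14 members high in liver held a share above albumin's but fell below the median in at least 1 tibialis array. Among them were Cyp2c70 at 5.16%, Cyp7a1 at 4.77%, Cyp2b10 at 4.71%, Cyp4f15, an eicosanoid hydroxylase, at 4.39% and Cyp4v3, a fatty acid hydroxylase, at 2.91%. Cyp2c70 was the nearest to detection, at 367, 397, 372 and 477 in WT tibialis and 351, 380, 400 and 479 in MGSKO, below the array median in MGSKO replicate 1 alone. The remaining 31 members were neither high in liver nor detected in tibialis.

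**Figure D3:**
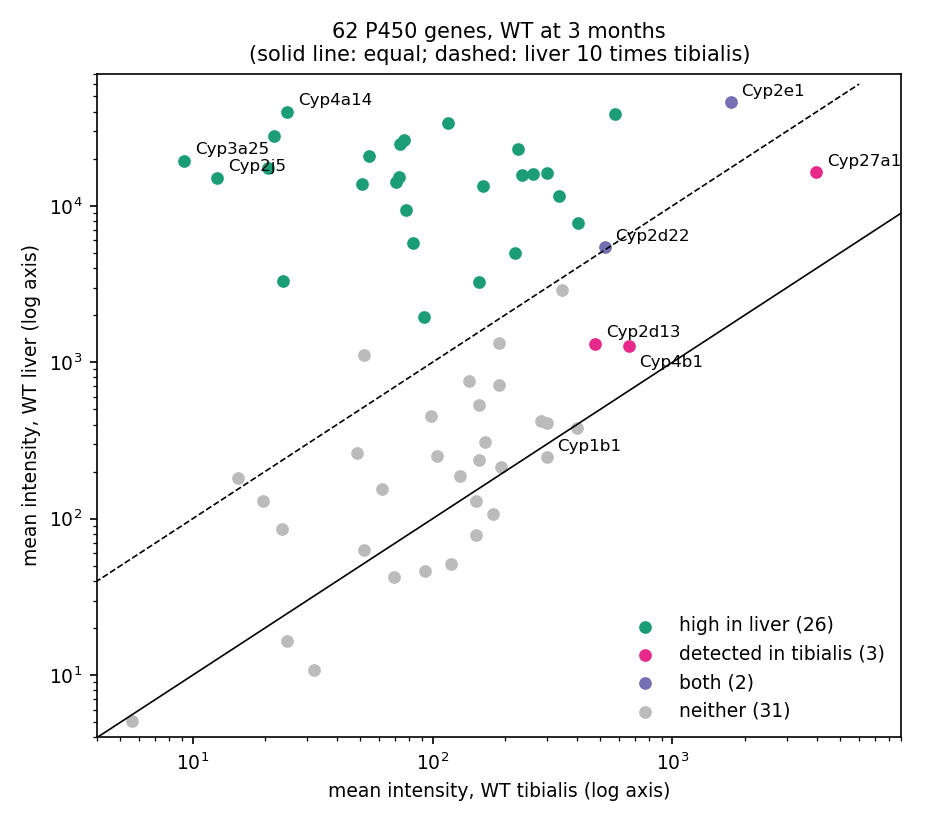
Mean intensity of the 62 P450 genes in WT tibialis (log axis) and WT liver (log axis), 4 arrays each, coloured by class, with a solid line at equality and a dashed line at a 10-fold liver excess. The 5 genes detected in tibialis lie at the right, Cyp27a1 furthest, and 26 genes high in liver alone fill the upper left. Grey points above the dashed line are genes that were not above the array median in all liver arrays.

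**Figure D4:**
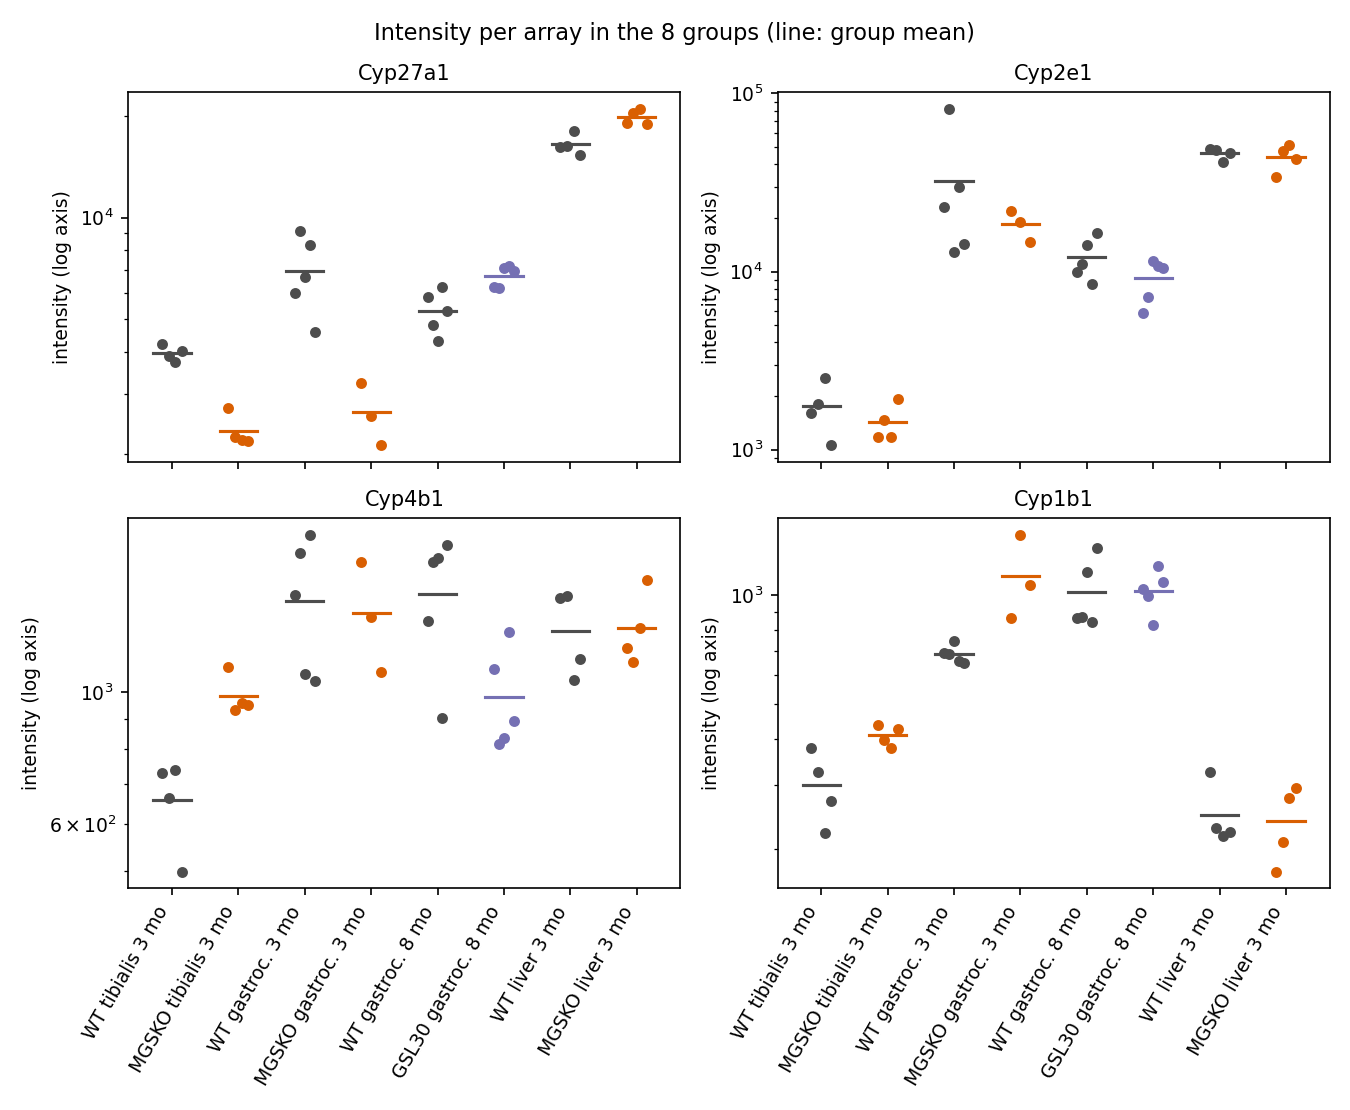
Intensity per array (log axis) of Cyp27a1, Cyp2e1, Cyp4b1 and Cyp1b1 in the 8 groups, with a line at each group mean. Cyp27a1 is lower in MGSKO than in WT in both muscles, a difference called in tibialis alone, and not in liver, and Cyp2e1 is higher in all gastrocnemius groups than in tibialis.

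Cyp27a1 fell in MGSKO tibialis. It read 4238, 3891, 3737 and 4029 in WT and 2726, 2241, 2202 and 2181 in MGSKO. The groups did not overlap, and the difference of -0.76 (SE 0.11, adjusted p = 0.0115 by limma) was the 1 call among 15 members tested, where 1.4% of all probe sets were called. The call ended without MGSKO replicate 2 (-0.74, adjusted p = 0.0588 by limma) or replicate 3 (-0.73, adjusted p = 0.0536 by limma). The same comparison in liver gave 0.26, and the difference between the effects, liver minus tibialis, was 1.02 (SE 0.14, adjusted p = 0.00215 by limma). It was the 1 call among 41 members in that contrast, where 0.744% of all probe sets were called. Macrophages, which also express Cyp27a1, gave a marker sum (5 genes) of 7568 to 11096 in WT and 7525 to 10308 in MGSKO tibialis, so the groups overlapped there. The endothelial marker sum (6 genes, 0 at zero intensity) was 10595 to 12711 in WT and 14725 to 17560 in MGSKO. Its part in the fall of Cyp27a1 was not tested, and in bulk RNA fewer cells of a type cannot be told apart from less RNA per cell.

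Cyp4b1 and Cyp1b1 were the next members in tibialis and did not pass. Cyp4b1, a fatty acid and xenobiotic hydroxylase found mostly outside the liver, read 731, 664, 740 and 499 in WT and 1100, 933, 959 and 951 in MGSKO. The groups did not overlap, and the difference was 0.56 (SE 0.14, adjusted p = 0.0926 by limma). Cyp1b1, which oxidises oestrogens, retinoids and polycyclic hydrocarbons, read 378, 326, 221 and 271 in WT and 439, 399, 378 and 426 in MGSKO, a difference of 0.42 (SE 0.15, adjusted p = 0.228 by limma). A dimmer probe set of Cyp1b1 gave 0.08 in the same comparison (257 ± 75.5 in WT and 271 ± 54.4 in MGSKO). Both genes read higher in MGSKO tibialis, as did the endothelial sum given above, and its part in them was not tested. In MGSKO gastrocnemius, where that sum was also higher, Cyp1b1 gave 0.65 and Cyp4b1 -0.05. In GSL30 gastrocnemius, where it was lower, Cyp4b1 gave -0.53 and Cyp1b1 0.03.

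The other genes detected in tibialis overlapped between the genotypes. Cyp2e1 read 1617, 1795, 2534 and 1061 in WT and 1174, 1476, 1175 and 1933 in MGSKO (-0.24, SE 0.25, adjusted p = 0.694 by limma). Cyp2d22 read 442 to 615 in WT and 581 to 695 in MGSKO, and Cyp2d13 448 to 504 and 375 to 615. Among the genes that serve the P450s, the conjugation list gave the calls in tibialis, 1 of 11 higher and 1 lower, where 1.4% of all probe sets were called. Gstm2, a glutathione transferase, fell by 0.84 (adjusted p = 0.00611 by limma). Aox1, aldehyde oxidase, which oxidises and does not conjugate, rose by 0.63 (adjusted p = 0.0492 by limma). Of 7 partners, 9 nuclear receptors and 7 haem synthesis genes 0 were called by limma. Of these genes 5 had an unadjusted p under 0.05, where 14.97% of all probe sets had such a p. Nr3c1, the glucocorticoid receptor, gave 0.47 (adjusted p = 0.122 by limma).

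WT gastrocnemius at 3 months read far more P450 signal than WT tibialis. With no filter 30 of the 62 members were higher and 0 lower, where 7.23% of all probe sets were higher. With the filter 31 of 37 were higher, where 12.2% of all probe sets were, but many of these passed it only through gastrocnemius. Of the index's probe sets of other genes that passed it 247 of 258 were called, beside 25 of 26 members high in liver. Without the 3 WT arrays whose liver index exceeded 15%, 9 of the 18 members then above the filter were higher. The share of all probe sets was not taken in that fit, where members could likewise pass the filter through gastrocnemius. Cyp4a14 read 13913, 34868, 5590, 21138 and 1880 in WT replicates 1 to 5, against 16.3 to 41.3 in WT tibialis. Cyp3a11 read 12828, 32788, 5619, 19837 and 1581, against 48.4 to 141. Both followed the order of the liver index except that replicate 2 stood above replicate 4.

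Across the 8 gastrocnemius arrays of 3 months the members rose with the liver index within genotypes. The slope was fitted on the log2 scale with genotype in the model, so that a slope of 1 is a doubling of the level with each doubling of the index. With no filter it was positive and called in 27 of the 62 members, where 2.74% of all probe sets had a positive call, and 26 of the 27 were among the 28 members high in liver. With the filter, which many members passed through the arrays of high index, it was called in 29 of 38, where 4.4% of all probe sets had a positive call. The index was built from genes outside the family. Of its own probe sets that passed the filter 292 of 307 were called, beside 26 of 27 members high in liver. Cyp2d9, a male-biased steroid hydroxylase, gave 1.20 (SE 0.05, adjusted p = 6.18e-06 by limma), Cyp8b1 1.12 (SE 0.06), Cyp2d10 1.39 (SE 0.06), Cyp2f2 0.997 (SE 0.06) and Cyp2c68 0.93 (SE 0.08). The other members of highest liver level, Cyp4a14, Cyp3a11, Cyp2d26, Cyp2c50, Cyp2a12 and Cyp3a25, gave 1.18 to 1.33. Without the 3 arrays over 15% the count was 15 of the 37 members tested, and the share of all probe sets called there was not taken.

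Members read in muscle had shallower slopes. Cyp2d22 gave 0.33 (SE 0.07, adjusted p = 0.0307 by limma) and Cyp4b1 0.26 (SE 0.06, adjusted p = 0.0290 by limma), while Cyp27a1 gave 0.25 (adjusted p = 0.102 by limma), Cyp2e1 0.55 (adjusted p = 0.102 by limma, and called under quantile normalization or a common median, 0.44 and 0.57), Cyp1b1 -0.04 (adjusted p = 0.805 by limma) and Cyp2d13 0.02 (adjusted p = 0.959 by limma). These slopes were not tested against those of the other members.

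**Figure D5:**
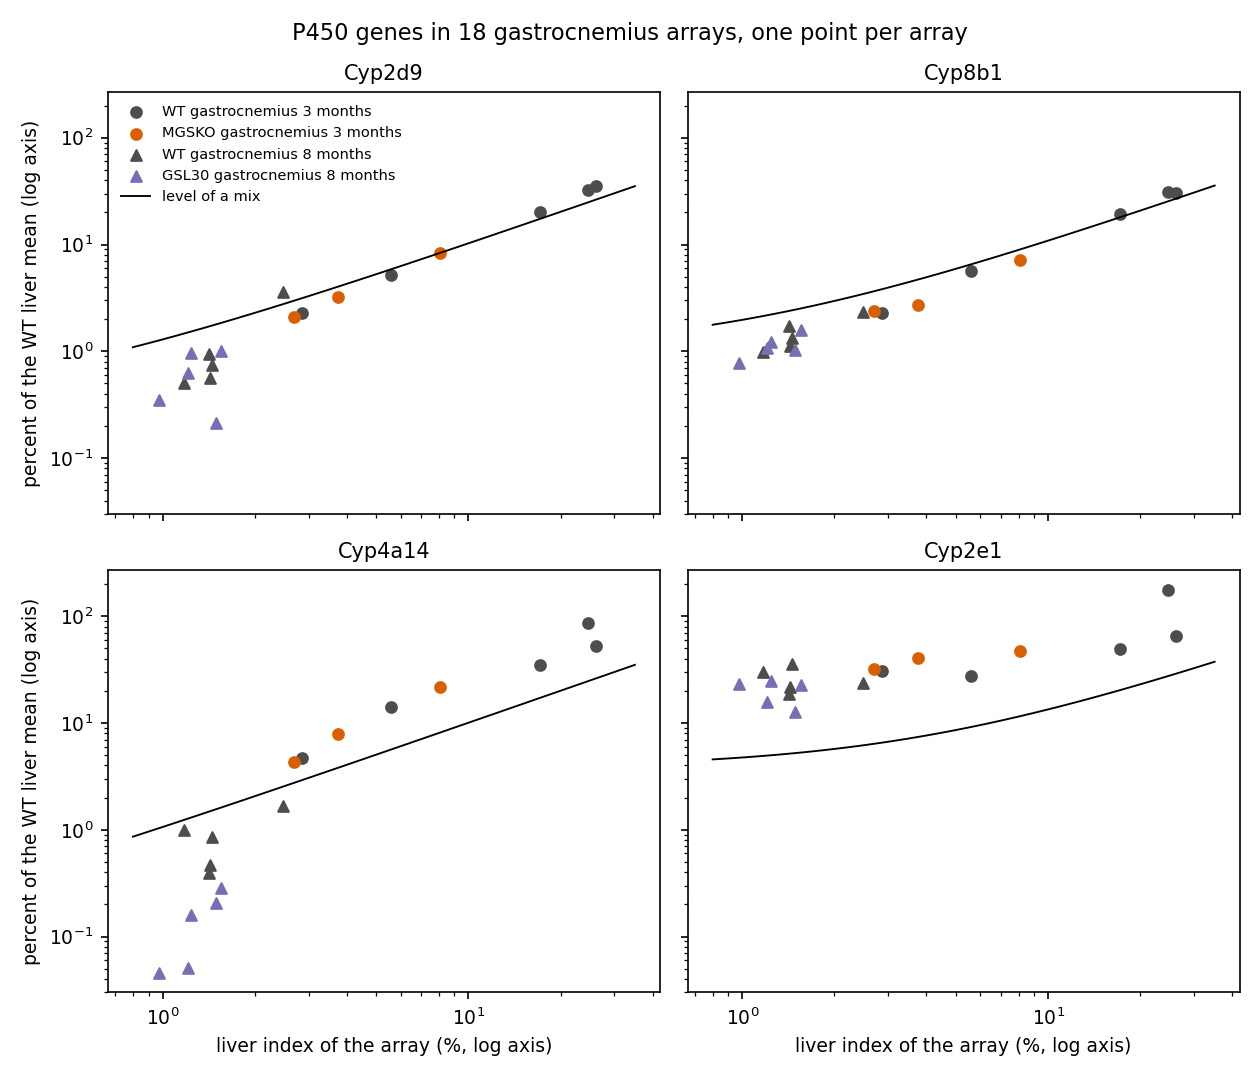
Percent of the WT liver mean (log axis) against the liver index of the array (log axis) for Cyp2d9, Cyp8b1, Cyp4a14 and Cyp2e1 in 18 gastrocnemius arrays, with circles for 3 months, triangles for 8 months, and a line at the level a mix of WT liver and WT tibialis would give. Cyp2d9 and Cyp8b1 lie near the line at 3 months, Cyp4a14 lies above it at 3 months, and Cyp2e1 lies above it in every array.

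The level of each member was next set beside a mix of the WT liver and WT tibialis means in the proportion of the array's liver index, with no test. At 3 months the median ratio of observed to mixed level over arrays lay close to 1 for Cyp8b1 (0.833), Cyp2d9 (0.938), Cyp2c50 (0.906), Cyp7a1 (1.01) and Cyp3a13 (1.01). Other members high in liver lay further below 1, among them Cyp4f14 (0.423), Cyp2c68 (0.648), Cyp7b1 (0.671), Cyp2j5 (0.683) and Cyp2a12 (0.693). The floor of the index was not taken off, which lowers the ratio most where the index is low. Cyp2j5 stood at 0.945 in WT replicate 4, of highest index, and at 0.100 in MGSKO replicate 3, of lowest index. Cyp2a12 stood at 0.835 and 0.100 in the same arrays. The median over the 28 members high in liver was 0.907, beside 0.819 for the 359 probe sets of other genes. At 8 months, where the index was close to its floor in tibialis, the medians were 0.508 and 0.548. The ratio exceeded 2 in 4 members high in liver (14.3%, against 5.01% of the other genes): Cyp2e1 at 4.39, Cyp2c29 at 2.29, Cyp3a11 at 2.20 and Cyp4a14 at 2.06. With an index taken from hepatocyte markers only Cyp2e1 of these 4 exceeded 2, at 2.43, and Cyp2c29, Cyp3a11 and Cyp4a14 stood at 1.31, 1.29 and 1.24. That index was above the main one in every gastrocnemius array of 3 months, for WT replicate 4 at 51.1 against 26.1%. The ratios near 1 would therefore be lower with it, and they were not computed. Among members not high in liver, Cyp2c39 stood at 3.27, Cyp1b1 at 2.46 and Cyp4b1 at 1.94.

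Cyp2e1 stayed bright in the arrays where liver signal was low. At 8 months, with a liver index of 0.974 to 2.48%, it read 9942, 11028, 14012, 8553 and 16470 in WT and 5817, 7193, 11461, 10735 and 10520 in GSL30, which was 12.6 to 35.6% of its WT liver mean. Cyp3a11 stood at 0.383 to 6.27% of liver and Cyp4a14 at 0.0453 to 1.68% in the same 10 arrays. The ratio of Cyp2e1 to the mix was 4.24 at 8 months, between 2.41 and 6.87 over arrays, and it was the 1 member high in liver above 2. The adipocyte marker sum (5 measured genes, 4 above the array median in all gastrocnemius arrays and 0 at zero intensity) was 27253 to 73342 over the gastrocnemius groups and 16429 to 25166 in tibialis. Cyp2e1 is also expressed in fat, and the part of adipocyte RNA in its gastrocnemius level was not tested. By its brightest probe set Cyp1b1 was likewise high in gastrocnemius, at 649 to 745 in WT of 3 months and 842 to 1349 in WT of 8 months. It read 221 to 378 in WT tibialis (1.10, SE 0.14, adjusted p = 7.84e-04 by limma for 3 months against tibialis). Its dimmer probe sets had means of 134 and 216 in WT gastrocnemius of 3 months, against 68.8 and 257 in WT tibialis, so they differed in direction.

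MGSKO gastrocnemius gave no called member among 38 tested, where 0.147% of all probe sets were called. At an unadjusted p under 0.05 there were 2 members (5.26%), against 11.4% of all probe sets. They were Cyp27a1 and Cyp1b1, and both were called when all 34 arrays shared 1 estimate of the spread (adjusted p = 3.51e-06 and 0.0413 by limma). The share of all probe sets called in that fit was not taken. Cyp27a1 read 5991, 9106, 6656, 8279 and 4594 in WT and 3237, 2592 and 2122 in MGSKO. The groups did not overlap, and the difference of -1.35 (SE 0.24) had an adjusted p of 0.0977 by limma. The liver index moved with this comparison in part, since 3 of the 5 WT arrays stood above every MGSKO array and the other 2 lay within the MGSKO range. With the index as covariate Cyp27a1 gave -1.01 (adjusted p = 0.136 by limma), and without the 3 WT arrays over 15% it gave -1.07 (adjusted p = 0.501 by limma). The difference between the effects, gastrocnemius minus tibialis, was -0.59 (SE 0.27, adjusted p = 0.482 by limma). In that contrast 0 of 34 members were called, where 0.0147% of all probe sets were called. At an unadjusted p under 0.05 there were 2 members (5.88%), against 10.0% of all probe sets.

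Cyp1b1 in gastrocnemius read 694, 687, 745, 660 and 649 in WT and 866, 1461 and 1067 in MGSKO. It did not overlap, with a difference of 0.65 (SE 0.17, adjusted p = 0.261 by limma). The dimmer probe sets of Cyp1b1, too dim to be tested, went in opposite directions. One read 134 ± 32.1 in WT and 166 ± 42.7 in MGSKO, and the other read 216 ± 128 and 146 ± 38.2. The endothelial sum was 8641 to 10711 in WT and 13207 to 14678 in MGSKO, and its part in this difference was not tested. With no filter the difference was negative in all 28 members high in liver and called in 0, with a median of -1.40. Liver genes outside the family did likewise. Of the index's probe sets 307 passed the filter, with a median of -1.28 and 0 called. Of 12 hepatocyte markers tested 0 were positive, with a median of -1.54. With the liver index as covariate 0 of the 38 members that passed the filter were called. Cyp2c37, an arachidonic acid epoxygenase, was nearest to a call among those that passed the filter (-1.72, SE 0.79, adjusted p = 0.451 by limma), and with the index as covariate it gave -0.31 (adjusted p = 0.786 by limma). Of the 7 partners, 12 nuclear receptors, 8 haem synthesis genes and 16 genes of the conjugation list tested, 0 were called by limma. At an unadjusted p under 0.05 there were 7, where 11.4% of all probe sets had such a p. Ppara, the receptor PPARα that drives Cyp4a genes, gave -2.12 (adjusted p = 0.150 by limma).

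GSL30 gastrocnemius at 8 months gave no called member among 19 tested, where 4.31% of all probe sets were called. At an unadjusted p under 0.05 there were 6 members (31.6%), against 21.4% of all probe sets. Cyp2f2 read 854, 1299, 736, 757 and 1069 in WT and 641, 576, 476, 707 and 576 in GSL30. The groups did not overlap, and the difference of -0.60 (SE 0.17) had an adjusted p of 0.0586 by limma. It passed with a filter at the 60th percentile (adjusted p = 0.0359 by limma) and without GSL30 replicate 4 (-0.66, adjusted p = 0.0496 by limma). Cyp27a1 read 5837, 4822, 4311, 6239 and 5291 in WT and 6230, 6203, 7102, 7198 and 6941 in GSL30, a difference of 0.35 (SE 0.12, adjusted p = 0.124 by limma) with overlap through WT replicate 4. Cyp4b1 read 1313, 1653, 1679, 903 and 1763 in WT and 1094, 818, 835, 1263 and 893 in GSL30 (-0.53, SE 0.19, adjusted p = 0.128 by limma). WT replicate 4 was low there, and without it the difference was -0.69 (adjusted p = 0.0405 by limma). Cyp39a1, an oxysterol hydroxylase of bile acid synthesis, gave 0.37 (adjusted p = 0.197 by limma).

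Cyp2d22 differed between its probe sets in GSL30 gastrocnemius. Its brightest probe set over all arrays read 1156, 684, 941, 1029 and 642 in WT and 660, 670, 683, 565 and 723 in GSL30 (-0.38, adjusted p = 0.203 by limma). A second probe set, brighter in these groups, read 1254 ± 139 (n = 5) in WT and 709 ± 74.6 (n = 5) in GSL30, and fell by 0.78 (SE 0.12, adjusted p = 0.00649 by limma). Cyp3a11 read 284 to 2116 in WT and 129 to 418 in GSL30 (-1.17, adjusted p = 0.142 by limma), with the highest value in WT replicate 2, the array of highest liver index at that age. Cyp3a11 was also the 1 member of 19 whose slope on the index was called at 8 months (2.26, SE 0.30, adjusted p = 0.0426 by limma), where 0.0442% of all probe sets had a positive call. That call ended when any 1 of 8 of the 10 arrays was left out, down to 1.63 without WT replicate 2 (adjusted p = 0.228 by limma). The adipocyte sum was 41397 to 73342 in WT and 30443 to 51657 in GSL30, and the endothelial sum 13006 to 15335 and 8270 to 9902. The hepatocyte sum was 5279 to 26659 in WT and 1845 to 4649 in GSL30, without overlap, with 3 of 5 tested markers called lower by limma and a median of -1.91. The smooth muscle sum was 9795 to 12498 in WT and 6264 to 7362 in GSL30, with 3 of 3 tested markers called lower. With the liver index as covariate Cyp2f2 gave -0.49 (adjusted p = 0.0922 by limma), Cyp4b1 -0.53 (adjusted p = 0.138 by limma) and the second probe set of Cyp2d22 -0.81 (adjusted p = 0.0101 by limma). At this age that index lay near its floor and overlapped between the groups. An index from hepatocyte markers did not overlap, at 0.423 to 2.12% in WT and 0.198 to 0.342% in GSL30. The covariate therefore cannot be taken to remove the difference in liver signal. The parts of adipocyte, endothelial and smooth muscle RNA in these values were not tested.

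Genes of the partner and conjugation lists gave calls in GSL30 gastrocnemius. Cyb5r1, a cytochrome b5 reductase, rose by 0.67 (adjusted p = 0.0163 by limma) and Cyb5b, a mitochondrial cytochrome b5, fell by 0.80 (adjusted p = 0.0337 by limma), of 7 partners tested. Of 11 genes of the conjugation list 1 rose and 2 fell, where 4.31% of all probe sets were called. The oxidising enzyme Aox1 rose by 0.60 (adjusted p = 0.0233 by limma). Fmo1, a flavin monooxygenase and likewise an oxidising enzyme, fell by 0.56 (adjusted p = 0.0191 by limma). Sult1a1, a phenol sulfotransferase and the only conjugating enzyme among them, fell by 1.08 (adjusted p = 0.0202 by limma). Of 8 nuclear receptors and 7 haem synthesis genes 0 were called by limma. At an unadjusted p under 0.05 there were 2 of these, 5 of the 7 partners and 6 of the 11 conjugation list genes. Such a p was held by 21.4% of all probe sets.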

How the data were processed

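The authors deposited 1 table of probe set intensity values on a linear scale for 34 arrays. The summarising program was not given in the sources used here. Each array's mean after trimming 2% at each end was 1000.34 to 1000.49, so the deposited values share a trimmed mean, as read from the file. Negative values were set to 0, and 64 control probe sets were left out. A platform annotation named 1 symbol for 20393 probe sets.

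With limma 3.58.1 (R 4.3.3), log2(intensity + 50) was fitted separately in each comparison, leaving out the dimmest 40% by mean level. Differences of effects and slopes on the log2 liver index were fitted likewise. The fits were tested on simulated data. Detection calls were not used, so the array median stood in for them.

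Named were called members, the 3 of smallest p where fewer than 5 were called, the 12 brightest in liver, those detected in tibialis, up to 6 above the mixed level, and up to 3 genes of each other list. Members, lists and rules were chosen with earlier results of these data known. Alternatives were quantile normalization, a common median, pseudocounts 1 and 200, other filters, a trended and robust eBayes, every probe set, all arrays in 1 fit, the liver index as covariate, other indices and each array left out. Leaving out the arrays over 15% was added after seeing the data.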

Additional observations from a re-analysis of the deposited data

Results flagged for a closer look

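Cyp27a1 gave a value far from the others of its group in MGSKO tibialis: replicate 1 read 2726 where the other 3 read 2181 to 2241. It lay nearest to WT, whose lowest array read 3737.

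Cyp4b1 also stood apart in that array: replicate 1 read 1100 where the others read 933 to 959, and there it lay furthest from WT. The liver index of WT gastrocnemius replicate 2 at 8 months was 2.48%, where the other 4 arrays lay between 1.17 and 1.45%. These 3 came from 28 groups looked at, and chance gives about 1 in 20.

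The effect of the knockout on Cyp27a1 differed between tissues, with liver minus tibialis at 1.02 by a test of the difference itself.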

How the results depend on the processing

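The counts of called members in MGSKO liver and in both differences of effects stayed at their values under every alternative run. Without each array in turn the count was 0 to 1 in MGSKO tibialis, 0 to 1 in GSL30 gastrocnemius and 0 to 1 for the slope at 8 months. The call of Cyp27a1 in MGSKO tibialis was kept under the 8 alternatives other than left-out arrays. All 34 arrays in 1 fit called 2 members in MGSKO gastrocnemius. In GSL30 gastrocnemius 1 member was called without the dim filter (Cyp4a14, -1.81, adjusted p = 0.0412 by limma), 1 at the 60th percentile (Cyp2f2) and 1 over every probe set (Cyp2d22, whose second probe set gave -0.84 to -0.68 over all alternatives). The slope at 8 months called 0 members under a common median, a pseudocount of 1, no dim filter and the 60th percentile. The slope of Cyp2f2 at that age was 0.43 and ran from -0.0073, without WT replicate 2, to 0.69, without GSL30 replicate 4. For WT gastrocnemius against WT tibialis the count was 16 at the 60th percentile and 9 without the arrays over 15%, where the slope at 3 months called 15. The count detected in tibialis was 2 at the 60th and 10 at the 40th percentile, and that of members over 2 at 3 months was 1 with the hepatocyte index. The causes were not tested. With 3 to 5 arrays a group and probe sets dim in muscle, small differences could not be detected, and related copies may share signal.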

Other observations

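Probe sets that read a P450 together with a second gene were left out of the family and gave these values. The probe set of Cyp4a31 and Cyp4a10 read 37456 ± 4802 in WT and 32327 ± 11659 in MGSKO liver (-0.30, adjusted p = 0.811 by limma), and that of Cyp2a5 and Cyp2a4 read 7906 ± 1766 and 10214 ± 4536 (0.29, adjusted p = 0.821 by limma). In gastrocnemius the Cyp4a31 and Cyp4a10 probe set read 19086 ± 16447 in WT of 3 months and 899 ± 712 in WT of 8 months, against 227 ± 35.5 in WT tibialis. The probe sets of Cyp3a41b with Cyp3a41a and of Cyp4f37 with Cyp4f16 had means of 31.3 to 157 in WT and MGSKO liver.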
